A study of Mus musculus with 16 samples.

Results

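The mitochondrial respiratory chain and ATP synthase are built from subunits of 5 complexes, most of them encoded by nuclear genes. In RNA from lungs of wildtype mice and mice without IL-31RA, 81 of the 16380 listed genes carry symbols of such subunits: symbols beginning with Nduf followed by a, b, c, s or v and a number, Uqcr, Cox4 to Cox8 followed by a letter, Atp5, and Sdha to Sdhd. They comprise 34 genes of complex I, 4 of complex II, 8 of complex III, 18 of complex IV and 17 named for complex V. Ndufa4 and its relative Ndufa4l2 were counted with complex IV, where the Ndufa4 protein resides, and Atp5s and Atp5sl carry the name of the ATP synthase without being subunits of it. The symbols alone chose the members, and no measured value was used.

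Complex I passes electrons from NADH and complex II from succinate to ubiquinone, complex III hands them to cytochrome c and complex IV to oxygen, and the proton gradient that complexes I, III and IV build up drives ATP synthesis by complex V. Several complex IV subunits exist as tissue isoforms: Cox6a2, Cox7a1 and Cox8b are the forms of heart and skeletal muscle, the latter pair also being found in brown fat, Cox4i2 is a form known from lung, and Cox6b2 from testis. A few core subunits are encoded by mitochondrial DNA and were not analysed here.

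Wildtype mice and littermate mice homozygous for a deletion of exons 4 to 6 of Il31ra, all of C57BL/6 background, were injected into the skin with saline or with bleomycin (6 U/kg, 5 days a week, over 4 weeks), and day 28 was the day of lung collection. Bleomycin breaks DNA and injures the lung, where fibrosis follows. The groups were named WT-Sal and WT-Bleo for wildtype and KO-Sal and KO-Bleo for IL-31RA knockout mice, each with 4 libraries of whole lung RNA, replicates 1 to 4, 5 to 8, 9 to 12 and 13 to 16. Mice were 10 to 18 weeks old and of both sexes. The knockout lacks the receptor in every cell type, and since no source used here says that the libraries of a group are from different mice, p-values measure the spread between libraries, which may be technical.

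WT-Bleo replicate 6 held 604136 reads and KO-Bleo replicate 15 held 1234595, against 7790576 to 32153714 in the other 14 libraries, and the median member had 34 and 69 reads in these shallow libraries and 351 to 1881 in the others. Each WT-Sal library had 5 to 17 Il31ra reads, each WT-Bleo library 0 to 13, each KO-Sal library 2 to 3 and each KO-Bleo library 2 to 9, and since these reads may lie outside the deleted exons they do not check the labels. KO-Sal replicate 10 carried fat transcripts: the adipokine gene Adipoq was at 81.4 RPKM (reads per kilobase of gene, scaled to library depth) there and at 8.42, 9.40 and 11.9 in KO-Sal replicates 9, 11 and 12. KO-Sal replicate 9 carried skeletal muscle transcripts, with the muscle actin Acta1 at 20.4 RPKM against at most 0.492 in every other library. Batches are not labelled, and a batch that followed the genotype cannot be told apart from it.

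Transcripts of the respiratory chain were abundant in the lung. The median member had a mean of 57.8 RPKM over the 16 libraries, the median of all listed genes being 7.07 RPKM, and 71 of the 81 members were at 20 RPKM or above. By complex, the median of the mean levels was 43.5 RPKM for complex I, 61.8 for complex II, 72.4 for complex III, 77.8 for complex IV and 103.8 for complex V. The most abundant member of each complex was Ndufa3 (120.8 RPKM), a small subunit of the membrane arm of complex I, Sdha (86.3 RPKM), the flavoprotein that oxidises succinate, Uqcrh (152.2 RPKM), the hinge protein of complex III, Cox6c (219.6 RPKM) of complex IV and Atp5b (291.7 RPKM), the catalytic beta subunit of the ATP synthase. At the other end, Cox8b, a muscle isoform, had the lowest mean of 4.21 RPKM.

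The members together took a larger part of the values in bleomycin lungs. Their RPKM summed to between 5326 and 5950 per WT-Sal library, between 6260 and 6711 per WT-Bleo library, between 5176 and 6094 per KO-Sal library and between 5831 and 6649 per KO-Bleo library. As a share of all values in a library the highest saline value was 1.43% in both genotypes, the lowest bleomycin value being 1.57% in wildtype and 1.46% in knockout lungs, without overlap between saline and bleomycin in either genotype. The mean of log2(RPKM + 1) over the members was 5.66 ± 0.0597 (SD, n = 4) in WT-Sal, 5.84 ± 0.0539 (SD, n = 4) in WT-Bleo, 5.70 ± 0.116 (SD, n = 4) in KO-Sal and 5.79 ± 0.0699 (SD, n = 4) in KO-Bleo. On this scale the KO-Sal libraries fell into pairs, and in 67 of the 81 members replicates 10 and 11 both lay above replicates 9 and 12 (82.7%). The pairs were picked after the levels were seen, and the share over all listed genes was not computed. The pairing is therefore not shown to be particular to the members. The sum of all RPKM values was also higher in replicates 10 and 11 (422807 and 432273) than in replicates 9 and 12 (403551 and 392139), and cytosolic ribosomal protein genes had their highest mean log2 level of the KO-Sal libraries in replicate 11 (8.29, against 7.91 to 7.99). Their part in the pairing was not tested.

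**Figure D1:**
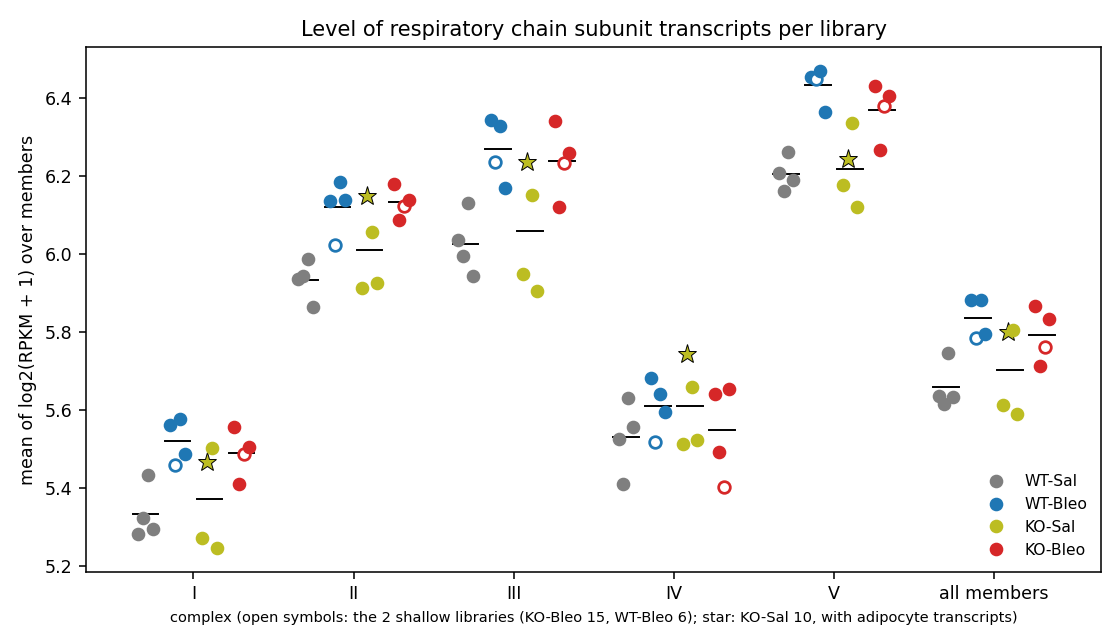
Mean of log2(RPKM + 1) over the members of each complex and over all 81 members (vertical axis), by complex (horizontal axis), with 1 point per library, coloured by group, and a line at the mean of each group. WT-Bleo libraries lay above all WT-Sal libraries in complexes I, II, III and V and over all members, while KO-Sal and KO-Bleo overlapped in every complex, KO-Sal replicates 10 and 11 being the high ones.

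The effect of bleomycin in wildtype lungs was compared first. Subunit transcripts of all 5 complexes rose with bleomycin in small steps, and 2 muscle isoforms of complex IV fell. Of the 81 members, 39 were called higher (48.1%, where 18.6% of all listed genes were called higher) and 2 lower (2.47%, where 12.3% of all genes were called lower), a gene being called at an adjusted p under 0.05 in limma, fitted on log2(RPKM + 1) across the listed genes. The median log2 fold change of the members was 0.24, that of all genes 0.01, and 71 of 81 members had a positive value, where 52.0% of all genes did. Called higher were 16 of 34 members in complex I (median log2 fold change 0.18), 3 of 4 in complex II (0.23), 3 of 8 in complex III (0.18), 7 of 18 in complex IV (0.25) and 10 of 17 in complex V (0.28). In a whole lung, more cells of a type and more RNA per cell cannot be told apart. With median-of-ratios scaling in place of the deposited one, 28 members were called higher and the median was 0.19, and with single libraries left out the count ranged from 28 without WT-Sal replicate 4 to 46 without the shallow WT-Bleo replicate 6. The steps were small: 2 members were higher and 3 lower at the thresholds of the study, which are an unadjusted p under 0.05 with a change of 1.5-fold or more. Of all 16380 listed genes, 1821 passed these thresholds in either direction.

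**Figure D2:**
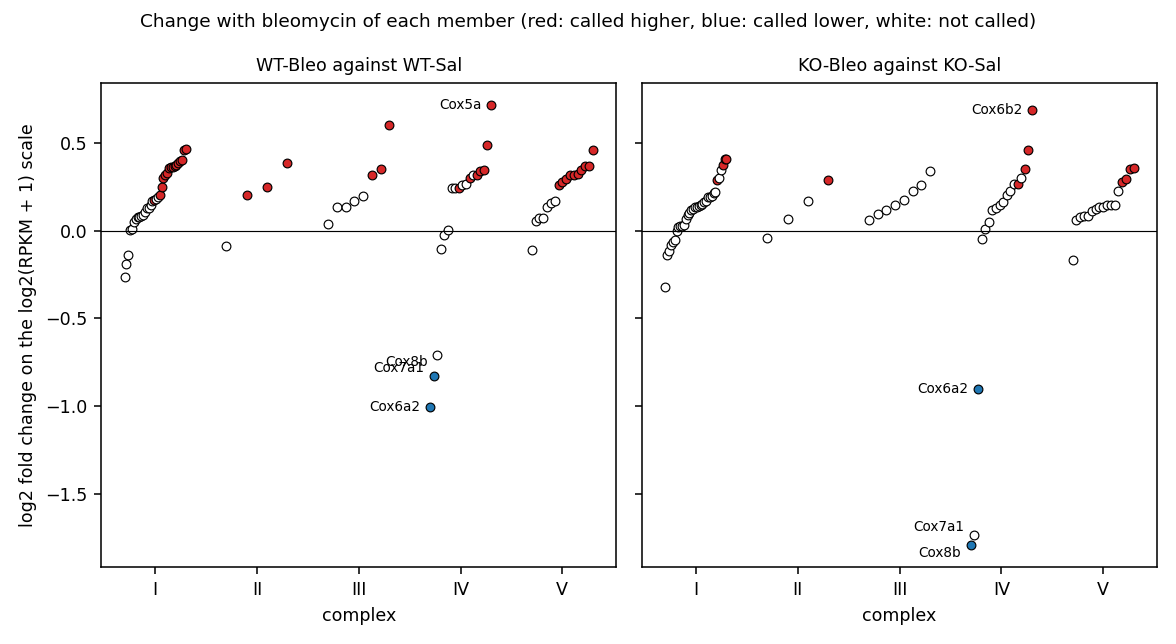
Log2 fold change with bleomycin on the log2(RPKM + 1) scale (vertical axis) of each member, by complex (horizontal axis), for wildtype (left) and knockout lungs (right), with called members filled. In wildtype lungs 39 members were called higher and 2 lower, in knockout lungs 13 and 2, and the lowest values in both are those of the muscle isoforms Cox6a2, Cox7a1 and Cox8b.

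Complex IV held the member with the highest log2 fold change. Cox5a, a nuclear subunit on the matrix side of complex IV (gene ID 12858, chromosome 9, 57517328 to 57532427 in GRCm38), was at 70.8, 64.3, 70.7 and 69.7 RPKM in the WT-Sal libraries and at 103.1, 126.7, 113.8 and 112.7 RPKM in the WT-Bleo libraries. Every WT-Bleo library lay above every WT-Sal library, and the log2 fold change was 0.72 (standard error 0.07, adjusted p = 5.74e-05). Cox6b1, the general isoform of subunit 6b, which faces the intermembrane space, rose by 0.49 on the log2 scale (adjusted p = 0.00172). Cox8a, the general isoform of subunit 8, was at 0.35 (adjusted p = 0.0494), a call that held in 4 of 15 alternative fits and ended without each of WT-Sal replicates 1 to 4 and WT-Bleo replicates 5 and 8. The general isoforms Cox4i1 and Cox6a1 and the abundant Cox6c also rose, by 0.34, 0.32 and 0.30 (adjusted p = 0.00287, 0.0210 and 0.0205). The call of Cox4i1 held in all 15 alternative fits. That of Cox6c ended with median-of-ratios scaling and when WT-Sal replicate 2 or 4 or WT-Bleo replicate 7 was left out (adjusted p up to 0.0629), and that of Cox6a1 with the same scaling and when WT-Sal replicate 2 or WT-Bleo replicate 5 was (adjusted p up to 0.0553).

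In complex III, Uqcrq, a small membrane subunit (gene ID 22272, chromosome 11, 53427922 to 53430831), was at 16.6, 15.7, 18.7 and 15.1 RPKM in WT-Sal and at 26.1, 28.6, 26.7 and 21.3 RPKM in WT-Bleo. The groups did not overlap, and the log2 fold change was 0.60 (standard error 0.10, adjusted p = 0.00131). Uqcrfs1, the Rieske iron-sulphur protein, rose by 0.35 (adjusted p = 0.00528) and Uqcrc1, a core protein, by 0.32 (adjusted p = 0.00307). The hinge protein Uqcrh, the most abundant of the complex, had 0.14 (adjusted p = 0.286) and was called only by limma-voom (adjusted p = 0.0438), the adjusted p reaching 0.528 over the alternatives.

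In complex I, the called members belonged to all parts of the enzyme: 4 of 8 in the module that binds NADH, 3 of 8 in the module next to the quinone site and 9 of 18 in the membrane arm. Ndufa8, of the membrane arm (gene ID 68375, chromosome 2, 36036324 to 36049338), was at 38.9, 40.8, 47.8 and 40.7 RPKM in WT-Sal and at 55.7, 51.5, 58.2 and 57.8 RPKM in WT-Bleo. All WT-Bleo libraries were above all WT-Sal libraries (log2 fold change 0.40, standard error 0.07, adjusted p = 0.00255). Ndufa13, also known as GRIM-19, rose by 0.47 (adjusted p = 0.00755) and Ndufa11, of the membrane arm, by 0.46 (adjusted p = 0.00884). Ndufa3, the most abundant member of the complex, rose by 0.36 (adjusted p = 0.00318).

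Complex II, the smallest, split between its subunits. Sdhd, a membrane anchor (gene ID 66925, chromosome 9, 50596340 to 50603849), was at 49.2, 44.9, 51.8 and 44.3 RPKM in WT-Sal and at 62.0, 55.4, 67.2 and 65.1 RPKM in WT-Bleo. The groups were apart, at 0.38 on the log2 scale (standard error 0.08, adjusted p = 0.00425). Sdhb, the iron-sulphur subunit, had 0.25 (adjusted p = 0.0240) and the anchor Sdhc 0.20 (adjusted p = 0.0204), calls that held in 8 and 12 of 15 alternative fits. That of Sdhb ended with median-of-ratios scaling and without WT-Sal replicate 1, 2 or 4 or WT-Bleo replicate 5, 7 or 8 (adjusted p up to 0.0704). That of Sdhc ended with median-of-ratios scaling (adjusted p = 0.0725) and without WT-Sal replicate 4 or WT-Bleo replicate 7 (adjusted p up to 0.0594). Sdha, the flavoprotein, was at 84.3, 90.2, 81.1 and 85.7 RPKM in WT-Sal and at 79.2, 81.03, 81.8 and 78.9 RPKM in WT-Bleo, with overlap (log2 fold change -0.09, standard error 0.05, adjusted p = 0.217).

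In complex V, the called members included 3 of 5 in the catalytic head and its central stalk, 2 of 4 in the peripheral stalk, all 3 genes of the proton-carrying c-ring and 2 of the 3 small membrane subunits. Atp5f1, subunit b of the peripheral stalk (gene ID 11950, chromosome 3, 105942698 to 105959263), was at 85.1, 89.5, 91.9 and 81.7 RPKM in WT-Sal and at 109.1, 116.2, 114.5 and 110.4 RPKM in WT-Bleo. These values did not overlap and differed by 0.37 on the log2 scale (standard error 0.05, adjusted p = 7.55e-04). The c-ring genes Atp5g3, Atp5g2 and Atp5g1 rose by 0.46 (adjusted p = 0.00136), 0.32 (adjusted p = 0.00796) and 0.30 (adjusted p = 0.00614), and the catalytic Atp5b by 0.28 (adjusted p = 0.00669). The c-ring genes encode the same mature protein and have processed copies in the genome, and no source used here says how reads shared with such copies were counted. Atp5o of the peripheral stalk rose by 0.37 (adjusted p = 0.00472), whereas neither Atp5s nor Atp5sl was called.

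As core subunits were counted 7 members of complex I, all 4 of complex II, 1 of complex III and 9 of complex V. Uqcrc1, though called a core protein, was counted as accessory. Of the 21 core subunits 12 were called higher with bleomycin in wildtype lungs, of the 43 accessory subunits 20 and of the 15 genes with tissue isoforms or close relatives 7, at medians of 0.20, 0.24 and 0.26. The part of the lung's cell types in these changes was not tested. Beside them, 10 of 12 markers of monocyte-derived macrophages rose in WT-Bleo, their mean log2 level lying at 4.07 to 4.24 in WT-Sal and 6.49 to 6.74 in WT-Bleo. Of 12 endothelial markers 10 fell and 1 rose (6.97 to 7.16 and 6.52 to 6.57), and of 11 markers of alveolar type 2 cells 9 fell (8.83 to 8.85 and 8.22 to 8.36). Erythroid genes fell in 5 of 5 (2.87 to 3.68 and 2.01 to 2.10), markers of T and B cells in 6 of 9 (3.04 to 3.29 and 2.22 to 3.14), where limma-voom called 4, and of 11 markers of alveolar macrophages 6 fell and 2 rose (4.59 to 4.77 and 3.37 to 3.97). Other lists were mixed or moved little: of 11 fibroblast markers 4 rose and 4 fell, and of 9 markers of alveolar type 1 cells 3 rose and 3 fell. Of 9 markers of club and ciliated cells 2 fell, and of 6 neutrophil markers 1 rose. Leaving out any single wildtype library but WT-Bleo replicate 7 gave 4 calls of T and B cell markers, the lower calls of alveolar macrophage markers were 4 without WT-Sal replicate 1, and the endothelial marker called higher was lost when WT-Sal replicate 1 or 3 or WT-Bleo replicate 5 was left out.

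The starts of the member genes were searched for short motifs, since many members moved together and promoters of nuclear respiratory genes are known to bind NRF1, the ETS factor GABP and YY1. RefSeq windows of 250 bases before to 50 after the gene's start in GRCm38.p6 matched 67 of the 81 members by gene ID. On either strand, the NRF1 motif GCATGCGC stood in 10 of them (14.9%, against 3.05% of the 27025 genes with a window), the ETS motif CCGGAAG in 16 (23.9%, against 9.93%) and the YY1 motif GATGGCGG in 7 (10.4%, against 1.97%). At least 1 of these motifs was in 27 members (40.3%, against 13.8% of genes). The motif AAGGTCA, bound by the oestrogen-related receptors (ERR), was in 7 members (10.4%, against 5.38%), and the TATA motif TATAAA in 6 (8.96%, against 15.7%). The 27025 genes include genes outside the 16380 listed here and were not matched to the members for expression level or base content. These shares therefore do not show an excess particular to respiratory genes. No motif contains another. A gene with several windows counts if any of them holds the motif, and in 12 of the 67 members, Cox5a among them, no window is at the outermost start of the gene. Among the 33 members called higher in wildtype lungs that had a window, 16 held an NRF1, ETS or YY1 motif, as did 11 of the other 34, and these are matches of letters, not sites shown to be bound. Shown are 3 of the 9 members called higher in both genotypes, all 3 with matches, which are in capitals. They do not stand for the 9, since the window of Cox5a, another of them, holds none of the 5 motifs. In Ndufa8 the capitals are the NRF1 motif, 8 bases before the start, on chr2:36049289-36049588, minus strand. In Sdhd they are the ETS motif, 46 bases before the start, and further down the ERR motif, on chr9:50603800-50604099, minus strand. In Atp5l, which encodes membrane subunit g of the ATP synthase, they are from left to right an NRF1, an ETS, a TATA, an ERR and another ETS motif, on chr9:44920693-44920992, minus strand.
Ndufa8: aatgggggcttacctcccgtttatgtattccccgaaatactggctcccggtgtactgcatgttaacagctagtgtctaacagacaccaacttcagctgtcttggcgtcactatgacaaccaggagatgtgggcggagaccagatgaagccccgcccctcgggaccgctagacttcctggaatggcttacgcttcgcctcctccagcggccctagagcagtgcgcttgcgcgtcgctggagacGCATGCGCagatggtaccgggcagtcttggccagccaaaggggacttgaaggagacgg
Sdhd: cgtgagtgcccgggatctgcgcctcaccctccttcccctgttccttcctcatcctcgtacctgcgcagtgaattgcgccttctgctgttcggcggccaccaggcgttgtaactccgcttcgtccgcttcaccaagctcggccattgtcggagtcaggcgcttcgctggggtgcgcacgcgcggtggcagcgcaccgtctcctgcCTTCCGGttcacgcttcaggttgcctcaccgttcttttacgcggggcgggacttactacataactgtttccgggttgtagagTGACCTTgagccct
Atp5l: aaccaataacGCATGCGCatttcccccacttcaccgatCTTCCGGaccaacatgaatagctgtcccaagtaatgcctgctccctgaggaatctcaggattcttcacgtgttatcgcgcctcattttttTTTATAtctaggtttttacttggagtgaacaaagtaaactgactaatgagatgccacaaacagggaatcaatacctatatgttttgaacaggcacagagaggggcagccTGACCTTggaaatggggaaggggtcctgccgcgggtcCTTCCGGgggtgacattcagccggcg

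In knockout lungs, fewer members were called with bleomycin. Of the 81, 13 were called higher (16%, where 13.2% of all listed genes were called higher, a share near the background) and 2 lower (2.47%, where 10.4% were). The median log2 fold change of the members was 0.14, that of all genes -0.01, and 68 of 81 members had a positive value, where 47.9% of all genes did. Called higher were 4 members of complex I, 1 of complex II, 0 of complex III, 4 of complex IV and 4 of complex V. At an unadjusted p under 0.05, 26 were higher and 4 lower (37% of the members and 37% of all genes; 2 of them higher in complex III), and limma-voom called 17 higher and 2 lower. The count rested on single libraries: it was 3 without KO-Sal replicate 9, 6 without KO-Sal replicate 12, 4 without KO-Bleo replicate 13 and 6 without KO-Bleo replicate 16, and 17 when KO-Sal replicate 11 or KO-Bleo replicate 14 was left out. Without KO-Sal replicate 10, the library with fat transcripts, 16 members were called higher (where 11.5% of all genes were) and 2 lower (9.77%), at a median of 0.17, with 4, 1, 1, 7 and 3 higher in complexes I to V.

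**Figure D3:**
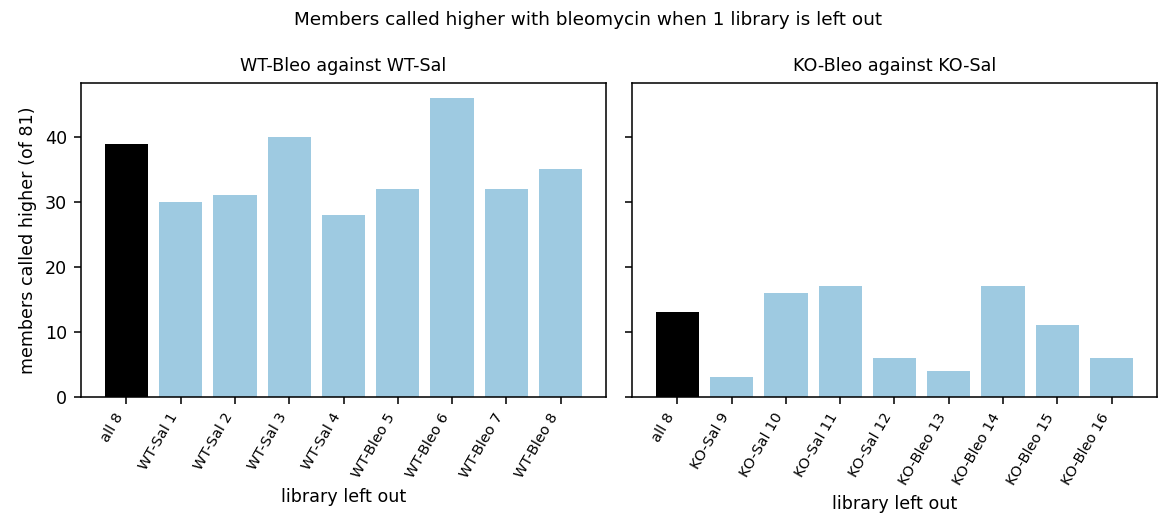
Number of the 81 members called higher with bleomycin (vertical axis) in the fit of all 8 libraries (black) and with each library left out in turn (blue, named on the horizontal axis), for wildtype (left) and knockout lungs (right). The wildtype count stayed between 28 and 46, and the knockout count lay between 3 and 17, being 16 without KO-Sal replicate 10.

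Of the members called higher in knockout lungs, 9 were also called higher in wildtype lungs (69.2% of 13 and 23.1% of 39): Ndufa1, Ndufa8, Ndufa11, Ndufb6, Sdhd, Cox5a, Atp5f1, Atp5g2 and Atp5l. Ndufa8 was at 38.3, 43.0, 43.6 and 36.9 RPKM in KO-Sal and at 56.6, 51.2, 54.8 and 53.1 RPKM in KO-Bleo. The KO-Bleo libraries all lay above the KO-Sal libraries (log2 fold change 0.41, standard error 0.07, adjusted p = 0.00222), and the call held in all 15 alternative fits. Atp5f1 was at 82.5, 94.3, 91.1 and 80.3 RPKM in KO-Sal and at 121.9, 107.2, 101.2 and 114.9 RPKM in KO-Bleo. Again the groups did not overlap (log2 fold change 0.35, standard error 0.08, adjusted p = 0.00923), in all 15 alternative fits too.

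Cox5a was at 71.7, 89.2, 82.8 and 65.2 RPKM in KO-Sal and at 106.8, 88.1, 122.9 and 107.8 RPKM in KO-Bleo. KO-Sal replicate 10 lay above KO-Bleo replicate 14, and the difference of 0.46 on the log2 scale (standard error 0.12, adjusted p = 0.0190) was not called without KO-Sal replicate 9 (adjusted p = 0.0593). Sdhd was at 48.4, 57.5, 53.4 and 47.7 RPKM in KO-Sal and at 65.5, 58.8, 65.5 and 63.6 RPKM in KO-Bleo. The difference of 0.29 on the log2 scale (standard error 0.07, adjusted p = 0.0163) was not called without KO-Sal replicate 9 or KO-Bleo replicate 13 (adjusted p up to 0.0555). Sdha, at 85.8, 107, 85.6 and 87.0 RPKM in KO-Sal and at 83.4, 88.9, 94.6 and 86.3 RPKM in KO-Bleo, was highest in the library with fat transcripts, and its log2 fold change of -0.04 became 0.03 without that library.

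The calls of Ndufa11 (log2 fold change 0.41), Ndufb6 (0.37), Atp5e, the epsilon subunit of the central stalk (0.36), Cox7a2, the general isoform of subunit 7a (0.35), Atp5l (0.30) and Atp5g2 (0.28) each ended without KO-Sal replicate 9 and without KO-Bleo replicate 13. All of these but Atp5e also lost the call without KO-Sal replicate 12 and without KO-Bleo replicate 16, Ndufa11 and Atp5g2 lost it without KO-Sal replicate 10, and the adjusted p reached 0.104 over the alternatives. Uqcr11, a small subunit of complex III, had 0.34 (adjusted p = 0.0699) and was called in 3 alternatives: without KO-Sal replicate 10, leaving out KO-Bleo replicate 14, and with a spread shared by all groups. Skeletal muscle markers, at a mean log2 level of 2.93 in KO-Sal replicate 9 against at most 0.987 in KO-Sal replicates 10 to 12, and the fat transcripts of replicate 10 stood beside these values. Of the cell type markers, 10 of 12 for monocyte-derived macrophages rose in KO-Bleo (mean log2 level 4.001 to 4.52 in the saline and 6.14 to 6.53 in the bleomycin libraries), and 8 of 12 for endothelial cells fell (6.72 to 7.08 and 6.40 to 6.62), which were 5 without KO-Sal replicate 9. Of those for alveolar type 2 cells 2 rose and 3 fell of 11 (8.67 to 8.88 and 8.62 to 8.77), and of those for alveolar macrophages 3 rose and 5 fell of 11 (4.41 to 4.69 and 4.03 to 4.31). Erythroid genes fell in 3 of 5 (2.90 to 3.65 and 1.99 to 2.62) and markers of T and B cells in 1 of 9 (3.17 to 3.99 and 2.99 to 3.33), which were 3 without the shallow KO-Bleo replicate 15 and 0 without KO-Sal replicate 11, KO-Bleo replicate 13 or KO-Bleo replicate 14. Of 11 fibroblast markers 3 rose and 3 fell (4 fell without KO-Sal replicate 10), and of 9 markers of alveolar type 1 cells 2 rose and 3 fell. Of 9 markers of club and ciliated cells 5 fell (3 without KO-Sal replicate 10), and of 6 neutrophil markers 1 rose. The part of these markers in the calls was not tested.

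The genotypes were compared under each treatment. Between KO-Sal and WT-Sal limma called 0 members (background 0.0183% higher and 0.0305% lower), with 2 at an unadjusted p under 0.05 (2.47%, against 16.2% of all genes), and the median log2 fold change was 0.03. Limma-voom also called 0. The 2 members were Cox7a1 (0.45, adjusted p = 0.242) and Ndufs3, a core subunit of complex I (0.18, adjusted p = 0.3003), and without KO-Sal replicate 10 no member had an unadjusted p under 0.05. Between KO-Bleo and WT-Bleo limma called 0 members (background 0.122% higher and 0.0916% lower), with 7 at an unadjusted p under 0.05 (8.64%, against 11.1% of all genes), at a median of -0.03, and limma-voom called 1. That member was Atp5k, which encodes membrane subunit e of the ATP synthase (gene ID 11958, chromosome 5, 108433246 to 108434399). It was at 141.3, 141.7, 133.3 and 111.2 RPKM in WT-Bleo and at 101.9, 93.7, 94.3 and 99.5 RPKM in KO-Bleo. Every KO-Bleo library lay below every WT-Bleo library, at a log2 value of -0.43 (standard error 0.08, adjusted p = 0.0814), which was called by limma-voom (adjusted p = 0.0204) and with a shared spread (adjusted p = 0.0401). Under saline Atp5k was at 104.6, 95.1, 126.9 and 97.3 RPKM in WT-Sal and at 84.7, 100.7, 102.0 and 81.4 RPKM in KO-Sal, where the groups overlapped (log2 fold change -0.20, adjusted p = 0.392).

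Whether wildtype and knockout lungs differed in their response to bleomycin was tested by the interaction over all 16 libraries. It called 0 members (background 0.14% positive and 0.0794% negative), with 5 at an unadjusted p under 0.05 (6.17%, against 11% of all genes) and a smallest adjusted p of 0.353, and limma-voom called 0 as well. The lower count in knockout lungs, 13 against 39, is therefore not shown to be a difference between the genotypes for any single member. The median interaction of the members was -0.05, against -0.02 for all genes. It was -0.01 with median-of-ratios scaling and -0.08 by limma-voom. It was -0.089 without the shallow WT-Bleo replicate 6, -0.075 without the shallow KO-Bleo replicate 15 and -0.095 without both. In the main fit 27 of the 81 members had a positive value, where 44.7% of all genes did, and 14 had one without both shallow libraries. In each of these fits 0 members were called. Without KO-Sal replicate 10 the median was -0.04 and again 0 members were called (background 0.122% positive and 0.0427% negative), with 3 at an unadjusted p under 0.05. The 5 members with an unadjusted p under 0.05 all had negative values: Ndufs7 -0.37, Uqcrq -0.34, Ndufb8 -0.29, Atp5d -0.26 and Atp5g3 -0.24. Uqcrq, for example, was at 15.3, 19.4, 18.1 and 15.04 RPKM in KO-Sal and at 24.4, 18.8, 17.3 and 21.9 RPKM in KO-Bleo, with overlap, where the wildtype groups had none.

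The muscle isoforms of complex IV moved against the rest. Cox6a2, the heart and skeletal muscle isoform of subunit 6a (gene ID 12862, chromosome 7, 128205435 to 128206366), was at 7.79, 10.1, 9.89 and 10.97 RPKM in WT-Sal and at 5.74, 2.51, 4.48 and 5.08 RPKM in WT-Bleo. In knockout lungs it was at 10.4, 7.93, 8.59 and 13 RPKM in KO-Sal and at 3.53, 6.89, 4.92 and 4.31 RPKM in KO-Bleo. The 2.51 RPKM of the shallow WT-Bleo replicate 6 and the 4.92 RPKM of the shallow KO-Bleo replicate 15 are 1 and 4 reads. Saline and bleomycin did not overlap in either genotype, and Cox6a2 fell in both, with log2 fold changes of -1.004 (standard error 0.19, adjusted p = 0.00338) and -0.90 (standard error 0.18, adjusted p = 0.00600), called in all 15 alternative fits of each. Its share of the summed RPKM of Cox6a1 and Cox6a2 was 7.10% ± 1.18 (SD, n = 4) in WT-Sal and 2.73% ± 0.849 (SD, n = 4) in WT-Bleo, and 7.38% ± 2.01 (SD, n = 4) in KO-Sal and 3.46% ± 1.17 (SD, n = 4) in KO-Bleo.

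Cox7a1, the isoform of subunit 7a in heart, skeletal muscle and brown fat (gene ID 12865, chromosome 7, 30184171 to 30186030), was at 10.2, 6.46, 6.86 and 6.77 RPKM in WT-Sal and at 3.44, 4.52, 2.89 and 4.34 RPKM in WT-Bleo. The 4.52 RPKM of the shallow WT-Bleo replicate 6 is 1 read. Cox7a1 fell in wildtype lungs without overlap (log2 fold change -0.83, standard error 0.16, adjusted p = 0.00328). The call held without that library and ended with a spread shared by all groups (adjusted p = 0.147). In KO-Sal Cox7a1 was at 8.62, 15.7, 10.02 and 9.14 RPKM, highest in the library with fat transcripts, and in KO-Bleo at 5.05, 2.92, 0.0 and 5.13 RPKM, the 0 being in the shallow replicate 15. The log2 fold change of -1.74 (adjusted p = 0.0531) was not called. It was -1.14 and called without replicate 15 (adjusted p = 0.00517), -1.56 and not called without replicate 10 (adjusted p = 0.110), and called in 5 of 15 alternative fits, without KO-Bleo replicate 16 also.

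Cox8b, the isoform of subunit 8 in heart, skeletal muscle and brown fat (gene ID 12869, chromosome 7, 140898942 to 140900446), was at 4.596, 2.30, 4.81 and 4.55 RPKM in WT-Sal and at 2.17, 4.56, 1.46 and 0.939 RPKM in WT-Bleo. The 4.56 RPKM of the shallow WT-Bleo replicate 6 is 1 read, and with it Cox8b was not called (log2 fold change -0.71, adjusted p = 0.116). Cox8b was called lower without that library (-0.999, adjusted p = 0.00531) and by limma-voom (-1.31, adjusted p = 0.00873), and the adjusted p was at most 0.281 over the alternatives. In KO-Sal it was at 6.21, 21.7, 4.43 and 3.56 RPKM, and in KO-Bleo at 1.89, 2.06, 0.0 and 2.15 RPKM. KO-Sal replicate 10 stood far above its group, and the difference of -1.80 on the log2 scale (standard error 0.56, adjusted p = 0.0495) was -1.29 without it (adjusted p = 0.0415). The call held in 3 of 15 alternative fits, ending also without the shallow KO-Bleo replicate 15 (log2 fold change -1.40, adjusted p = 0.0893) and without KO-Sal replicate 9 or 11 or KO-Bleo replicate 13, 14 or 16. The start of Cox8b is shown because, unlike the windows of Ndufa8, Sdhd and Atp5l, it holds none of the NRF1, ETS, YY1 and ERR motifs. Its only match is the TATA motif, in capitals, just after the annotated start (chr7:140900397-140900696, minus strand). The window of Cox7a1 holds none of the 5 motifs, and neither does that of Cox5a, which was called higher in both genotypes. Of the 33 members called higher in wildtype lungs that had a window, 16 held an NRF1, ETS or YY1 motif. A window without these motifs is therefore not particular to the isoforms that fell.
Cox8b: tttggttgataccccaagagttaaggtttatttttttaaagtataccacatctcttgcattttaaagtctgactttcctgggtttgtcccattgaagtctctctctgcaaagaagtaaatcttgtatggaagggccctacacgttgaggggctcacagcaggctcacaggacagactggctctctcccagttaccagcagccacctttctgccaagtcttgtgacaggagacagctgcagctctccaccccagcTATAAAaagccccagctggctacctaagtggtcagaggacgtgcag

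Markers of fat and muscle varied beside these isoforms, and their part in the isoform values was not tested. The 14 adipocyte markers had a mean log2 level of 4.47 in KO-Sal replicate 10 and between 2.56 and 2.70 in KO-Sal replicates 9, 11 and 12. WT-Sal libraries lay between 2.24 and 2.52, WT-Bleo libraries between 1.59 and 2.36 and KO-Bleo libraries between 1.91 and 2.36, and 4 of them fell with bleomycin in wildtype and 2 in knockout lungs. Without WT-Sal replicate 4 the wildtype count was 2 and without WT-Bleo replicate 6 it was 6, and the knockout count was 7 without KO-Sal replicate 10. Limma-voom called 7 lower in wildtype and 2 in knockout lungs. Of 11 brown fat markers 6 were listed, with a mean of 2.93 in KO-Sal replicate 10 against at most 2.12 in KO-Sal replicates 9, 11 and 12. Cidea, a lipid droplet protein of brown fat, was at 19.9 RPKM in replicate 10 and at most at 2.13 RPKM in the other KO-Sal libraries. Fabp3 and Kng2, of the same list, lay within the range of the other KO-Sal libraries there (18.7 and 0.324 RPKM). With bleomycin 2 of the 6, Dio2 and Kng2, were called higher in wildtype lungs (33.3%, against 18.6% of all genes) and 0 lower. They reached 1.70 and 2.86 RPKM in WT-Bleo. In knockout lungs 0 were called higher and 1, Fabp3, lower (16.7%, against 10.4%). The defining marker of brown fat, Ucp1, is not listed. Mouse pulmonary veins carry a sleeve of heart muscle, and the 12 cardiac muscle markers had mean log2 levels between 2.96 and 3.83 in WT-Sal, between 2.85 and 3.29 in WT-Bleo, between 3.29 and 4.39 in KO-Sal, lowest in replicate 10, and between 2.44 and 3.31 in KO-Bleo. With bleomycin 1 of the 12 fell in wildtype and 9 in knockout lungs, among them the cardiac troponin Tnni3 (log2 fold change -0.53, adjusted p = 0.0384 and -1.46, adjusted p = 0.0106). At an unadjusted p under 0.05, 3 and 10 were lower, and limma-voom called 6 and 5. The interaction called 0 of the 12 (background 0.14% positive and 0.0794% negative). The wildtype count was 0 without WT-Sal replicate 2, 3 or 4 or WT-Bleo replicate 7 and 3 without WT-Sal replicate 1 or WT-Bleo replicate 6, and the knockout count 4 without KO-Sal replicate 9 and 11 without KO-Sal replicate 10. The wildtype call of Tnni3 ended in 6 of 15 alternative fits, with a shared spread and when WT-Sal replicate 2, 3 or 4 or WT-Bleo replicate 6 or 7 was left out (adjusted p up to 0.145), and its knockout call held in all 15. In WT-Sal, KO-Sal and KO-Bleo the library with the lowest cardiac mean was also the one with the lowest Cox6a2, at 7.79, 7.93 and 3.53 RPKM, which was not so in WT-Bleo.

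**Figure D4:**
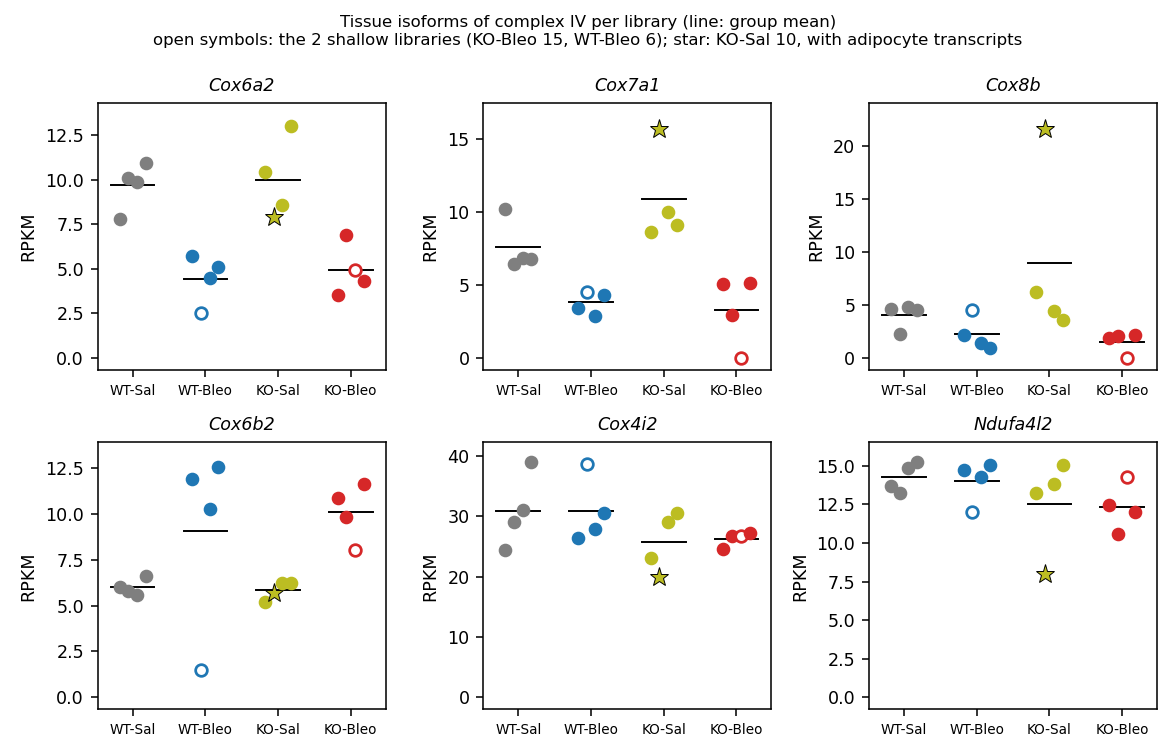
RPKM (vertical axes, starting at 0) of 6 tissue isoforms or relatives of complex IV subunits in each of the 16 libraries, by group (horizontal axes), with a line at the mean of each group. Cox6a2 and Cox7a1 were lower in all WT-Bleo than in all WT-Sal libraries, Cox8b reached 21.7 RPKM in KO-Sal replicate 10, and Cox6b2 was higher with bleomycin in 7 of the 8 libraries, the other being the shallow WT-Bleo replicate 6.

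Cox6b2, known as the testis isoform of subunit 6b (gene ID 333182, chromosome 7, 4751792 to 4753094), was at 6.00, 5.81, 5.59 and 6.59 RPKM in WT-Sal and at 11.9, 1.49, 10.3 and 12.6 RPKM in WT-Bleo. The 1.49 RPKM are 1 read in the shallow replicate 6, and with it Cox6b2 was not called (log2 fold change 0.26, adjusted p = 0.718), but without it the log2 fold change was 0.84 (adjusted p = 3.17e-05). In knockout lungs it was at 5.22, 5.69, 6.24 and 6.22 RPKM in KO-Sal and at 10.9, 9.84, 8.002 and 11.6 RPKM in KO-Bleo. It rose there without overlap (log2 fold change 0.69, standard error 0.11, adjusted p = 0.00168), the call ending with a spread shared by all groups (adjusted p = 0.208). Its share of the summed RPKM of Cox6b1 and Cox6b2 lay between 3.16% and 4.52% in WT-Sal, between 0.644% and 6.11% in WT-Bleo, lowest in the shallow replicate 6 and overlapping WT-Sal, between 3.20% and 4.39% in KO-Sal and between 4.19% and 5.99% in KO-Bleo.

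Cox4i2, the lung isoform of subunit 4, was not called in any comparison. Its mean RPKM was 30.8 ± 6.08 (SD, n = 4) in WT-Sal, 30.9 ± 5.49 in WT-Bleo, 25.7 ± 5.0 in KO-Sal and 26.3 ± 1.18 in KO-Bleo, and made up 9.14% to 18.4% of the summed RPKM of Cox4i1 and Cox4i2 over the 16 libraries. Ndufa4l2, the relative of Ndufa4 that is induced by hypoxia, had mean RPKM of 14.2 ± 0.943 (SD, n = 4) in WT-Sal, 14.01 ± 1.36 in WT-Bleo, 12.5 ± 3.12 in KO-Sal and 12.3 ± 1.53 in KO-Bleo, lowest at 7.97 RPKM in KO-Sal replicate 10. The shares of the c-ring genes overlapped between saline and bleomycin in both genotypes. Atp5g3 made up 46.1% to 55.2%, Atp5g2 32.9% to 41.8% and Atp5g1 8.32% to 13.8% of their summed RPKM in single libraries, with the highest Atp5g3 and the lowest Atp5g2 share in the shallow WT-Bleo replicate 6 and the lowest Atp5g1 share in the shallow KO-Bleo replicate 15.

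Genes around the respiratory chain were described from lists of related function. With bleomycin 18.6% of all listed genes were called higher and 12.3% lower in wildtype lungs, and 13.2% and 10.4% in knockout lungs. Of 6 nuclear subunits and electron carriers outside the symbols above, 4 rose with bleomycin in wildtype and 2 in knockout lungs, among them Usmg5, a small ATP synthase subunit (log2 fold change 0.49, adjusted p = 0.00262 and 0.25, adjusted p = 0.0221). Its knockout call ended without KO-Sal replicate 9, 10 or 12 or KO-Bleo replicate 16 (adjusted p up to 0.0665), which left 1 of the 2. Assembly factors help to build the complexes without being part of them. Limma called 0 of 15 for complex I in either genotype, with 1 and 3 at an unadjusted p under 0.05 in wildtype and knockout lungs, and limma-voom called 0 and 1, whereas 3 of 4 for complex II rose in wildtype lungs, led by Sdhaf1 (0.70, adjusted p = 0.00380), which delivers the iron-sulphur clusters. These were 1 without WT-Sal replicate 2 or WT-Bleo replicate 7, since the calls of Sdhaf2 and Sdhaf4 held in 12 and 7 of 15 alternative fits and that of Sdhaf1 in all 15. For complex III 1 of 6 rose in wildtype lungs, namely Uqcc2 (0.37, adjusted p = 0.00394). For complex IV 2 of 22 did, Cox19 (0.42, adjusted p = 0.00999) and Cox14 (0.24, adjusted p = 0.0384). These shares, 16.7% and 9.09%, were below the 18.6% of all genes. The calls of Uqcc2 and Cox19 held in all 15 alternative fits. That of Cox14 held in 5 and ended by limma-voom, with both other scalings and a shared spread, and when WT-Sal replicate 1, 2 or 4 or WT-Bleo replicate 5, 6 or 7 was left out (adjusted p up to 0.106), and 4 of the 22 were called higher without WT-Bleo replicate 6. In knockout lungs limma called 0 of 4 for complex II and 0 of 6 for complex III, with 1 and 0 at an unadjusted p under 0.05, and limma-voom called 1, Sdhaf2, and 0. Of the list for complex IV, Cmc1 (0.36, adjusted p = 0.0131) was called higher and Fastkd1 (-0.35, adjusted p = 0.00883) lower in knockout lungs. The call of Cmc1 ended with a shared spread (adjusted p = 0.457). Fastkd1 stood in that list without being an established assembly factor of complex IV. Atpif1, which inhibits the ATP synthase when it runs in reverse, rose in both genotypes (0.41, adjusted p = 0.00487 and 0.49, adjusted p = 0.00255). In each of these lists the interaction called 0 genes (background 0.14% positive and 0.0794% negative).

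In the citric acid cycle, 4 of 13 enzymes rose and 1 fell in wildtype lungs, with Mdh2, mitochondrial malate dehydrogenase, at 0.43 (adjusted p = 1.38e-04) and Cs, citrate synthase, at 0.31 (adjusted p = 0.00588), and limma called 0 in knockout lungs, where 1 had an unadjusted p under 0.05 and limma-voom called 1. The wildtype enzyme called lower was lost without WT-Sal replicate 1, 2 or 4 or WT-Bleo replicate 5 or 8, and 2 were lower without WT-Bleo replicate 6. Without KO-Sal replicate 10, Cs and Mdh2 were called higher in knockout lungs (adjusted p = 0.0412 and 0.0384), the median of the enzymes moving from -0.03 to 0.03, and 1 enzyme was called lower without KO-Bleo replicate 15. That KO-Sal library had the highest mean log2 level of these enzymes in its group, at 5.68 against 5.39 to 5.45. Of 15 glycolysis enzymes, 11 rose and 1 fell in wildtype lungs (median log2 fold change 0.44) and 5 rose and 1 fell in knockout lungs (0.08). The shares called higher in wildtype lungs were 30.8% for the citric acid cycle and 73.3% for glycolysis, against 18.6% of all genes. In knockout lungs they were 0% and 33.3%, against 13.2%. Gapdh had 0.88 (adjusted p = 6.08e-05) and 0.59 (adjusted p = 0.00141), and Pgam1, phosphoglycerate mutase, 0.84 (adjusted p = 6.69e-06) and 0.54 (adjusted p = 0.00147). The interaction called 0 enzymes of the citric acid cycle and 0 of glycolysis (background 0.14% positive and 0.0794% negative). The lower counts in knockout lungs are therefore not shown to be a difference between the genotypes for any single enzyme. Of 15 regulators of mitochondrial biogenesis, 1 rose and 3 fell in wildtype lungs and 1 rose and 1 fell in knockout lungs. In wildtype lungs these were 6.67% higher and 20% lower, where 18.6% and 12.3% of all genes were. In knockout lungs they were 6.67% in each direction, where 13.2% and 10.4% of all genes were. Esrra, an oestrogen-related receptor that acts on respiratory genes, rose in both (0.42, adjusted p = 0.00471 and 0.26, adjusted p = 0.0292), and Gabpb2, a subunit of GABP, fell in both (-0.49, adjusted p = 0.00929 and -0.23, adjusted p = 0.0292). The wildtype calls of both held in all 15 alternative fits. In knockout lungs the call of Esrra ended without KO-Sal replicate 9 or 12 or KO-Bleo replicate 16 (adjusted p up to 0.0762). That of Gabpb2 ended with a shared spread and without KO-Sal replicate 9, 10 or 12 or KO-Bleo replicate 13 or 16 (adjusted p up to 0.0881, and 0.0568 without replicate 10). Limma-voom called 2 of the regulators higher and 5 lower in wildtype and 1 and 4 in knockout lungs, and without WT-Bleo replicate 6 limma called 2 higher in wildtype and without KO-Bleo replicate 15 it called 2 lower in knockout lungs.

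Other large protein assemblies were set beside the members. Of 78 mitochondrial ribosome proteins, 20 rose in wildtype lungs (25.6%, median log2 fold change 0.16) and 5 rose and 1 fell in knockout lungs (6.41% higher, 0.06), and limma-voom called 37 and 7 higher. The wildtype count was 10 when WT-Sal replicate 1 or 4 or WT-Bleo replicate 7 was left out and 38 when the shallow WT-Bleo replicate 6 was. The knockout count was 1 without KO-Sal replicate 9, 10 or 12, 2 without KO-Bleo replicate 16 and 8 without KO-Sal replicate 11. Of 76 cytosolic ribosome proteins, 14 rose in wildtype lungs (18.4%, near the 18.6% of all genes; median 0.09) and 2 in knockout lungs (2.63%, below the 13.2% of all genes; median 0.01). With single libraries left out these were 7 (without WT-Sal replicate 1 or 2), 8 (without WT-Sal replicate 4 or WT-Bleo replicate 5), 9 (WT-Bleo replicate 7 left out) and 22 (without WT-Sal replicate 3) in wildtype lungs. In knockout lungs 10 were called higher without KO-Sal replicate 11, 2 without KO-Bleo replicate 14 and 1 without any one of the other libraries. Of 40 proteasome subunits, which form the protease that degrades ubiquitinated proteins, 28 rose in wildtype (70%, median 0.30) and 26 in knockout lungs (65%, median 0.24). The wildtype count stayed between 23 and 31 with single libraries left out. In knockout lungs it was 15 when KO-Bleo replicate 13 or KO-Sal replicate 9 was left out, 16 without KO-Sal replicate 12, 20 without KO-Sal replicate 10 and up to 29. For each of these assemblies the interaction called 0 genes (background 0.14% positive and 0.0794% negative). A difference between the genotypes is therefore not shown for any single gene of them.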

How the data were processed

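The authors deposited 1 table of RPKM values, without naming the unit, which was read from the values: whole reads were recovered for 16367 of 16380 genes (99.92%, relative tolerance 6e-08). The submitters' processing notes list TopHat, DESeq, CASAVA 1.8 and bcl2fastq, with the mm10 build. No source used here gives the counter, annotation or strand setting, so overlapping genes and near-identical copies may share reads. All 16 columns were used and 0 were left out. Each comparison was fitted with limma 3.58.1 (R 4.3.3; trend and robust options) on log2(RPKM + 1) over all listed genes, on the libraries of its groups, with Benjamini-Hochberg adjustment over all 16380 genes. Interaction terms used all 16 libraries. The scripts were tested on simulated data. A log2 fold change on this scale understates the change of low genes. Alternatives were pseudocounts of 0.1 and 5, a mean of at least 1 RPKM, median-of-ratios and upper-quartile scaling, limma-voom on recovered reads, a spread shared by all groups, the study's thresholds, and each library, or both shallow libraries, left out. For lists and genes outside the members these alternatives were added after seeing the data. Named genes were, per comparison and complex, up to 3 called members with the largest change in each direction (or the member with the smallest p), the most abundant member, tissue isoforms, the Sdh genes, and up to 2 genes per list, beside further members called or near the threshold that were chosen after their values were seen. Members and lists were chosen with earlier results of these data known. Intervals were not computed, and RPKM of low genes carry counting error. Sequences and positions are from RefSeq GRCm38.p6.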

Additional observations from a re-analysis of the deposited data

Results flagged for a closer look

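Among 216 sets of 4 libraries (the named members, complexes and marker lists in each group, which are not independent), 13 had 1 library set apart from the other 3 by more than the critical gap for 4 values. Chance gives about 5%, a share near that of these 13. KO-Sal replicate 10 stood apart in 4 of them, with Cox8b at 21.7 RPKM (others 3.56 to 6.21), Sdha at 107 RPKM (85.6 to 87.0), adipocyte markers at a mean log2 level of 4.47 (2.56 to 2.70) and brown fat markers at 2.93 (2.03 to 2.12). KO-Sal replicate 9 had skeletal muscle markers at 2.928 (0.749 to 0.987). In the shallow KO-Bleo replicate 15 Cox8b was at 0.0 RPKM (1.89 to 2.15). In WT-Sal, Uqcrfs1 was at 45.8 RPKM in replicate 3 (39.8 to 40.6), Cox7a1 at 10.2 in replicate 1 (6.46 to 6.86), Cox8b at 2.3 in replicate 2 (4.55 to 4.81) and Cox6a1 at 110.0 in replicate 2 (131 to 135). In WT-Bleo, Ndufb8 was at 25.6 RPKM in replicate 7 (22.9 to 23.3), Ndufa3 at 150.0 in replicate 5 (138 to 139), and cardiac muscle markers at a mean log2 level of 2.846 in replicate 7 (3.22 to 3.29).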

How the results depend on the processing

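No paired analysis was possible because the replicate numbers 1 to 16 each occur once. In wildtype lungs the members called higher numbered 39, and 2 at the study's thresholds, and 28 to 46 with single libraries left out. Those called lower numbered 2, and 1 with a shared spread and 2 to 4 with single libraries left out (4 without WT-Bleo replicate 6, where Cox8b and Atp5s were added). In knockout lungs 13 were called higher, and 1 at the study's thresholds and 3 to 17 with single libraries left out, and 2 were called lower, and 1 with a pseudocount of 0.1, 4 with a shared spread and 1 to 2 with single libraries left out (1 without KO-Sal replicate 11 or KO-Bleo replicate 13 or 14). At the study's thresholds, 1821 of the 16380 listed genes passed in wildtype and 1220 in knockout lungs, both directions together. Between KO-Bleo and WT-Bleo 1 member, Atp5k, was called lower by limma-voom and 1, the same gene, with a shared spread. The cause of these moves was not tested.

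Over the alternatives of the named results, 1137 values kept their direction and side of the threshold, 35 passed it newly, 104 no longer passed it and 17 changed sign. The sign changes were all of values near 0. Sdha in knockout lungs was 0.0331 without KO-Sal replicate 10 (from -0.0763 to 0.0331 with single libraries left out), and Cox7a2l 0.0121 without replicate 11 (from -0.0874 to 0.0121). Ndufa4l2 in wildtype lungs was 0.0275 by limma-voom and 0.00519 and 0.0416 without replicates 4 and 6 (from -0.0585). In knockout lungs it was -0.000155 with a pseudocount of 5, -0.00188 with median-of-ratios scaling, -0.0473 by limma-voom, and -0.178 and -0.0611 without replicates 10 and 15 (up to 0.101). Cox4i2 in wildtype lungs was -0.0431 and -0.0289 with median-of-ratios and upper-quartile scaling, -0.104 by limma-voom, and -0.0966, -0.016 and -0.105 without replicates 1, 2 and 6 (up to 0.122), and in knockout lungs -0.0566 without replicate 10 (up to 0.139).

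In WT-Bleo replicate 6, 11 members had under 10 reads. The cause of the differences between KO-Sal libraries was not tested.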
